A study of Mus musculus with 9 samples.

Results

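The imprinted growth genes described here are Ndn, Dlk1, Igf2, Plagl1, Igf2r, Meg3, H19, Peg3, Mest and Grb10, a set of 10 mouse genes known for parent-of-origin expression and for effects on growth. The members were chosen by their log2 differences on these same arrays, above all those between SV5-NN4 and SV5, so the values of its members in those comparisons are a description and carry no test. Every probe set of the array whose annotation gives exactly 1 symbol, being a member, was taken. This gave 27 of 22690 probe sets and 9 of 12393 measured genes. The probe set for H19 carries a further symbol, so H19 has no value among them.

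The arrays compared 3 mouse lines, each on 3 arrays. NIH 3T3 is an established embryonic fibroblast line and is labelled wild type. SV5 is a stable clone of NIH 3T3 that carries SV40 large T antigen, a viral oncoprotein which binds the retinoblastoma proteins and p53. SV5-NN4 is a stable clone that carries SV40 large T antigen and wild-type Nras, a small GTPase of the Ras family. The labels name no promoter for either gene. All lines were grown in the same medium with calf serum. Each derived line is 1 clone, so what belongs to a clone and what belongs to its transgene cannot be told apart. Nothing in the labels says that replicate arrays came from separate cultures, so a p-value here speaks only of array-to-array variation, possibly technical.

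An imprinted gene is transcribed mainly from the maternal or mainly from the paternal chromosome, according to DNA methylation laid down in the germ line. Many imprinted genes act on fetal and postnatal growth, and several paternally expressed ones are known to be regulated together in a network that includes the zinc finger factor Plagl1, the growth factor Igf2 and the long noncoding RNAs H19 and Meg3. Of the measured members, Ndn, Dlk1, Igf2, Plagl1, Peg3 and Mest are expressed from the paternal allele, Igf2r and Meg3 from the maternal allele, and Grb10 from the maternal allele in most tissues. The arrays report the sum of both alleles and cannot assign a transcript to a parent.

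The start regions of the genes on which the results turn are shown because CpG sites are the bases at which imprinted promoters carry methylation. RefSeq windows from 250 bases before to 50 bases after a start were found for all 9 measured members, 16 windows in all, on the mouse build GRCm38.p6. The window of Ndn lies at chr7:62348027-62348326 on the plus strand and holds 11 CpG sites. That of Dlk1 lies at chr12:109452573-109452872 on the plus strand and holds 9. The first Meg3 window lies at chr12:109540746-109541045, downstream of Dlk1 on the same strand, and holds 13. Each is written 5′ to 3′ with CpG in capitals.
Ndn: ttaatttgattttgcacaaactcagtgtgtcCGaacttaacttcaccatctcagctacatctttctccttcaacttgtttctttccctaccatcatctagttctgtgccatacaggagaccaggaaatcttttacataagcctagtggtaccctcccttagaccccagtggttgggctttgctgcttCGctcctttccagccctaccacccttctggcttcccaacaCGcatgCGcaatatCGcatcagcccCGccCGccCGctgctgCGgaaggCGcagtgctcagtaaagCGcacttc
Dlk1: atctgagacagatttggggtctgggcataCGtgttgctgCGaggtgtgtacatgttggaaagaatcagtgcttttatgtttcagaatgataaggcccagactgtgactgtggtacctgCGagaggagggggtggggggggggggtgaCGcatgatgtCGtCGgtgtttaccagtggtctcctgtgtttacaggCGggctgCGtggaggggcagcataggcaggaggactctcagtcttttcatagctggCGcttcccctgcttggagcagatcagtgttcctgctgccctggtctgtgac
Meg3: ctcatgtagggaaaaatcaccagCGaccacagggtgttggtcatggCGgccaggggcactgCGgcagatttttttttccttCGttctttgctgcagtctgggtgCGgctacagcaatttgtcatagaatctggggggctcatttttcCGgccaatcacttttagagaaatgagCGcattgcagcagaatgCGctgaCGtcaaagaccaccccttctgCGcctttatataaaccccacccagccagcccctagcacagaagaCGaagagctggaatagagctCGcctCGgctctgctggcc
The median over all 32851 windows of the table was 7 CpG sites, so these windows lie above it. The CpG-richest member windows belonged to Grb10 with 45 sites, Igf2r with 34 and Plagl1 with 26. The letters GGGGCCCC, a palindrome that matches the known binding motif of Plagl1, occurred in 1 of the 16 member windows, that of Peg3, and in 1.08% of all windows. The letters TATAAA, searched on both strands, were found in 1 member window, the first of Meg3, against 13.6% of all windows. Methylation was not measured, and a match is a description of the sequence only.

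Levels are given as log2 of the deposited intensity plus 1, so a difference of 1 is a change of 2-fold in that quantity. Gene differences are means over pairs of arrays with equal replicate number, with the standard error (SE) from a fit across all probe sets. Differences given without 1 array come from that fit. There the unpaired arrays of the same replicate number still count, so these values are not means of the remaining pairs. Values of different probe sets are not set against each other, since probes differ in brightness. As a floor, 15 probe sets for bacterial transcripts read between 3.14 and 4.25, and the median probe set of the array read 5.93. All 9 members were above that range on every array at their brightest probe set, and 18 of the 27 probe sets were above it on every array. The label fibroblast was checked against 9 marker genes such as Col1a1 and Vim, of which 8 were above the control range on all 9 arrays and 1, Lum, was within it on at least 1 array. Of 26 measured markers of epithelial, blood, endothelial, muscle, neural and fat cells, 15 were within the control range on at least 1 array, 5 of them on all arrays.

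In SV5-NN4 the brightest probe set of all 9 measured members read lower than in SV5, with a median difference of -1.04 on the log2 scale, whereas the median over all genes was 0.01 and 47.8% of all genes were lower. For Meg3 the fitted difference turned to 0.42 when SV5-NN4 replicate 3 was left out, although the remaining pairs were -0.42 and -0.07. The same 9 were also lower than in NIH 3T3, where 55.1% of all genes were lower. Mest there differed by only -0.05 (SE 0.18), and its sign turned in some alternative fits. In SV5 against NIH 3T3 the members went both ways, 4 lower and 5 higher, where 55.2% of all genes were lower. Over the probe sets, 26 of 27 were lower in SV5-NN4 than in SV5, with a median difference of -0.49 against 0.01 for all probe sets. Between SV5-NN4 and SV5 the paired limma fit called 7 of the 27 lower and 0 higher at an adjusted p under 0.05, where 0.555% of all probe sets were called lower and 0.309% higher. The arrays of SV5-NN4 lay below those of SV5 without overlap in 11 of the 27, against 3.72% of all probe sets. Because this contrast chose the members, nothing is read from these counts. Between SV5-NN4 and NIH 3T3, again 7 were called lower, where the share was 0.516% lower and 1.14% higher over the array, and 11 did not overlap, against 3.11%. This comparison shares the SV5-NN4 arrays with the one that chose the members. Between SV5 and NIH 3T3, 0 of the 27 were called by limma, where 0.0617% of all probe sets were called. A further count at an unadjusted p under 0.05 gave 3 of the 27, where 14.2% of all probe sets passed that limit. The arrays of 1 probe set, of Meg3, lay lower in SV5 without overlap, against 2.39% of all probe sets. That comparison shares the SV5 arrays with the one that chose the members.

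**Figure D1:**
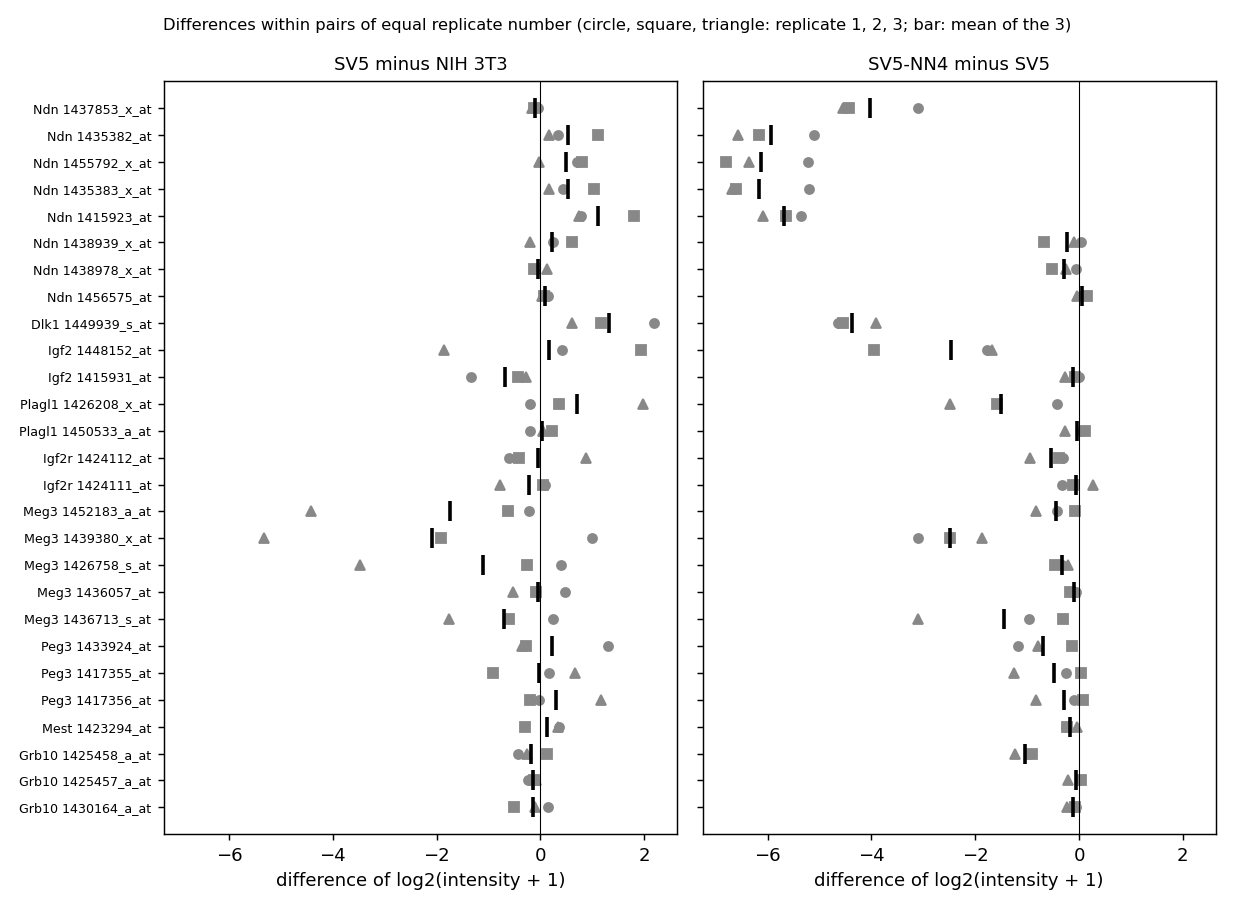
Difference of log2(intensity + 1) at each of the 27 probe sets of the 9 measured members, between arrays of equal replicate number (circle, square and triangle are replicates 1, 2 and 3; the bar is their mean). On the right, for SV5-NN4 minus SV5, 26 bars lie below 0 and those of 5 Ndn probe sets and of Dlk1 lie farthest from it; on the left, for SV5 minus NIH 3T3, the bars lie on both sides.

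Ndn encodes necdin, a MAGE family protein that restrains cell division by binding E2F1 and p53 and promotes neuronal and muscle differentiation. At its brightest probe set, 1437853_x_at, Ndn read 9.87, 11.03 and 10.27 on the NIH 3T3 arrays. It read 9.83, 10.9 and 10.1 on the SV5 arrays and 6.73, 6.46 and 5.55 on the SV5-NN4 arrays. The NIH 3T3 and SV5 arrays overlapped, and every SV5-NN4 array lay more than 3 units below them. The difference between SV5-NN4 and SV5 was -4.03 (SE 0.31, n = 3 pairs), or 16.3-fold, and that between SV5 and NIH 3T3 was -0.11 (SE 0.31). In bulk RNA, fewer expressing cells and less RNA per cell cannot be told apart.

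Necdin is covered by 8 probe sets, and 5 of them showed the same pattern of bright NIH 3T3 and SV5 arrays and dim SV5-NN4 arrays. Probe sets ending in x_at hold probes that can also bind related transcripts. Of the 5, these are 1437853_x_at, 1455792_x_at and 1435383_x_at, while 1435382_at and 1415923_at lack that ending. At 1415923_at the SV5 arrays read 8.66, 8.97 and 9.49 and the SV5-NN4 arrays 3.32, 3.32 and 3.41. The SV5-NN4 arrays thus lay within the range of the bacterial controls, where a level has only an upper bound. This was so on all 3 SV5-NN4 arrays for 1455792_x_at, 1435383_x_at and 1415923_at, and on 2 of 3 for 1435382_at. Taking the top of the control range as the SV5-NN4 level, Ndn was at least 49.8-fold, 45-fold and 27.8-fold lower than in SV5 at the first 3 of these, in that order. At 1435382_at, with the 2 arrays in the control range set to its top, the level was at least 53.9-fold lower. At 1415923_at Ndn read higher in SV5 than in NIH 3T3 by 1.11 (SE 0.28) in 3 of 3 pairs, with an adjusted p of 0.16 in the paired limma fit. This test shares the SV5 arrays with the contrast that chose the gene. The remaining 3 Ndn probe sets, 1438939_x_at, 1438978_x_at and 1456575_at, read between 3.94 and 5.24 on all 9 arrays. Their differences between SV5-NN4 and SV5 were -0.24, -0.28 and 0.05, within or near the spread of the arrays, and 1456575_at was within the control range on 8 of 9 arrays.

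**Figure D2:**
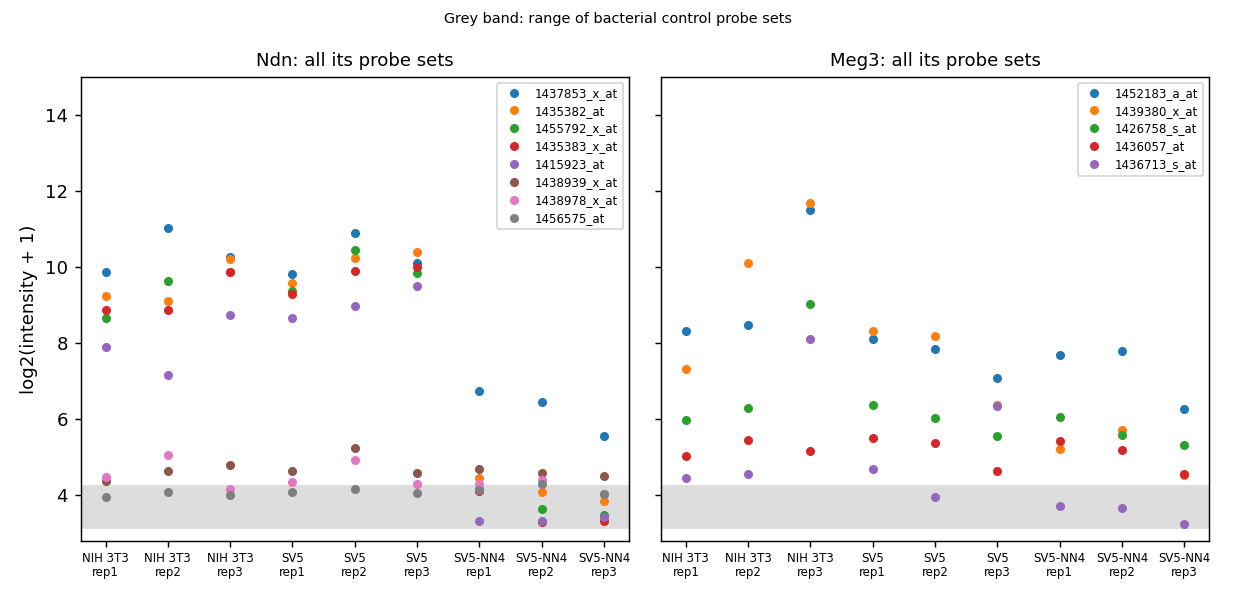
Level of every Ndn probe set (left, 8) and every Meg3 probe set (right, 5) on each array, as log2(intensity + 1); 1 colour is 1 probe set and the grey band is the range of the bacterial control probe sets, 3.14 to 4.25. For Ndn, 5 probe sets are bright in NIH 3T3 and SV5 and dim in SV5-NN4 while 3 stay near the band; for Meg3, NIH 3T3 replicate 3 is the highest array at 4 of the 5.

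Dlk1 encodes a membrane protein of the Delta family, also known as preadipocyte factor Pref-1, which holds back fat cell differentiation and is a marker of immature mesenchymal cells. Its only probe set, 1449939_s_at, read 9.66, 10.95 and 12.19 on the NIH 3T3 arrays. It read 11.85, 12.11 and 12.8 in SV5 and 7.19, 7.57 and 8.9 in SV5-NN4. The order was therefore SV5, NIH 3T3 and SV5-NN4, with SV5 and NIH 3T3 overlapping and SV5-NN4 below all other arrays. The difference between SV5-NN4 and SV5 was -4.37 (SE 0.27, n = 3 pairs), or 20.6-fold, with pair values of -4.65, -4.54 and -3.91. Against NIH 3T3 it was -3.05 (SE 0.27). In SV5 the level was above NIH 3T3 by 1.32 (SE 0.27), higher in 3 of 3 pairs, with an adjusted p of 0.13 in the paired limma fit. As for Ndn, this comparison shares the SV5 arrays with the contrast that chose the gene, so the value is a description. Dlk1 stayed clear of the control range on every SV5-NN4 array. All its values rest on this single probe set, and whether its probes bind other transcripts was not tested.

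**Figure D3:**
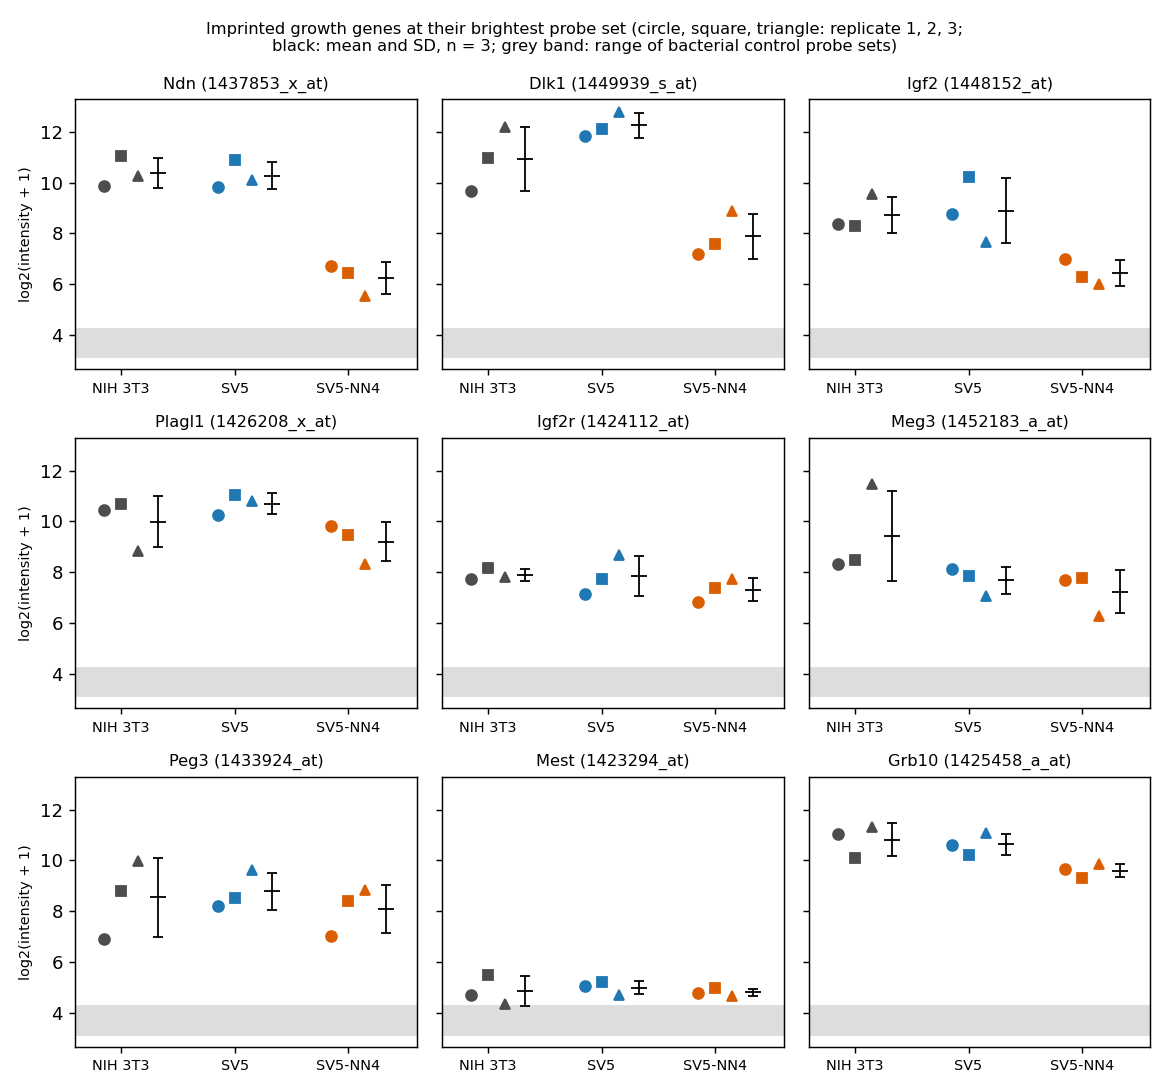
Level of each measured member at its brightest probe set, as log2(intensity + 1), by line; circle, square and triangle are replicates 1, 2 and 3, the black bar is the mean with its SD (n = 3) and the grey band is the range of the bacterial control probe sets. Ndn, Dlk1, Igf2 and Grb10 have all SV5-NN4 arrays below all others, Plagl1 has them below SV5, and Mest lies just above the band in every line.

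The growth factor of the set, its clearance receptor and an adaptor of the insulin pathway came next. Igf2, insulin-like growth factor 2, is a fetal mitogen that signals through the type 1 IGF receptor. At 1448152_at it read 8.36, 8.3 and 9.54 in NIH 3T3, 8.78, 10.23 and 7.68 in SV5 and 7, 6.28 and 6.01 in SV5-NN4. The SV5-NN4 arrays lay below the other lines, while the SV5 arrays were spread over more than 2 units. The difference between SV5-NN4 and SV5 was -2.47 (SE 0.64, n = 3 pairs), or 5.52-fold, with pair values of -1.78, -3.95 and -1.67. The dimmer Igf2 probe set, 1415931_at, read between 4.02 and 6.07 and differed between SV5-NN4 and SV5 by -0.11 (SE 0.21).

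Igf2r encodes the receptor that takes Igf2 to the lysosome and so lowers its supply. Its probe set 1424112_at read 7.74, 8.16 and 7.81 in NIH 3T3, 7.13, 7.75 and 8.69 in SV5 and 6.83, 7.37 and 7.75 in SV5-NN4. The lines overlapped, with a difference between SV5-NN4 and SV5 of -0.54 (SE 0.27), or -0.21 without SV5 replicate 3. The other probe set differed by -0.06 (SE 0.19), less than the spread of the arrays. Grb10 encodes an adaptor that binds the insulin and IGF1 receptors and restrains their signal. At 1425458_a_at it read 11.05, 10.1 and 11.32 in NIH 3T3, 10.62, 10.22 and 11.07 in SV5 and 9.64, 9.31 and 9.84 in SV5-NN4. Every SV5-NN4 array was below every other array, and the pairs with SV5 gave a narrow range, -0.97, -0.91 and -1.23. The mean difference was -1.04 (SE 0.17), or 2.05-fold. At the dimmer Grb10 probe sets the differences were -0.06 and -0.12, within their array spread.

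Plagl1, also called Zac1, encodes a zinc finger transcription factor that can arrest the cell cycle. At 1426208_x_at it read 10.45, 10.69 and 8.83 in NIH 3T3, 10.24, 11.05 and 10.81 in SV5 and 9.81, 9.47 and 8.33 in SV5-NN4. SV5-NN4 lay below SV5 without overlap but overlapped NIH 3T3, whose replicate 3 was low. The difference from SV5 was -1.5 (SE 0.41) and the pairs were uneven, -0.43, -1.58 and -2.48. Without SV5 replicate 3 it was -0.93. Its dim probe set 1450533_a_at differed by -0.04 (SE 0.15). The Plagl1 difference thus rests on 1426208_x_at alone, whose probes can also bind related transcripts.

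Peg3 encodes a zinc finger protein with roles in growth and maternal behaviour. At 1433924_at it read 6.89, 8.8 and 9.96 in NIH 3T3, 8.2, 8.53 and 9.61 in SV5 and 7.03, 8.4 and 8.82 in SV5-NN4. The lines overlapped and the arrays followed their replicate number, with replicate 1 the lowest in every line. The difference between SV5-NN4 and SV5 was -0.7 (SE 0.33), lower in 3 of 3 pairs, and -0.31 without SV5 replicate 1. The other Peg3 probe sets differed by -0.49 (SE 0.3) and -0.28 (SE 0.25). On 1417356_at all 3 SV5-NN4 arrays carried the same value, 4.15, within the control range. Such ties were common, since 6816 of the 22690 probe sets had exactly the same deposited value, with no rounding, on at least 2 arrays. Mest, a hydrolase-like protein of mesoderm and enlarging fat cells, read between 4.35 and 5.5 on all 9 arrays, just above the control range, and differed between SV5-NN4 and SV5 by -0.18 (SE 0.18).

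Meg3 is a long noncoding RNA of the Dlk1 cluster, transcribed from the maternal chromosome. At 1452183_a_at it read 8.33, 8.47 and 11.49 in NIH 3T3, 8.11, 7.85 and 7.08 in SV5 and 7.68, 7.78 and 6.27 in SV5-NN4. NIH 3T3 replicate 3 was the highest of all 9 arrays at this and 3 other of the 5 Meg3 probe sets. On the same array the log2 ratio of 3' to 5' probe sets of Gapdh was 5.21, against 2.36 to 3.52 on the other 8; its part in the Meg3 value was not tested. SV5 and SV5-NN4 overlapped at this probe set, with a difference of -0.44 (SE 0.88). The probe set 1439380_x_at, whose probes can also bind related transcripts, read 7.32, 10.11 and 11.7 in NIH 3T3, 8.32, 8.19 and 6.37 in SV5 and 5.22, 5.7 and 4.52 in SV5-NN4. There SV5-NN4 lay below SV5 in all pairs, with a difference of -2.48 (SE 1.02), or -1.56 without SV5 replicate 1, and the difference from NIH 3T3 was -4.56 (SE 1.02), or -3.1 without NIH 3T3 replicate 3. The Meg3 probe sets thus disagree in the size of the difference, from -0.1 to -2.48. The difference of SV5 from NIH 3T3 at 1452183_a_at was -1.75 (SE 0.88), with an adjusted p of 0.42 in the paired limma fit. Without NIH 3T3 replicate 3 it was -0.32. Here too the SV5 arrays are shared with the contrast that chose the gene.

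The members varied along different axes. For the 5 bright Ndn probe sets, 94.2% to 98.1% of the variance over the 9 arrays lay between lines. For Dlk1 the share was 85.1% and for Igf2 at 1448152_at it was 70.5%. The members were chosen by differences between these lines, so high shares between lines follow in part from that choice. The shares are a description and are not set against all probe sets. For Peg3, by contrast, 78.6% and 85.9% of the variance at its brighter probe sets lay between replicate numbers, and for Mest 69.6%. At the brightest probe sets, after the replicate means were removed, Ndn and Grb10 correlated across the 9 arrays at r = 0.94 and Ndn and Dlk1 at r = 0.93. In all, 7 of 36 pairs of members were above 0.8, and the range went from -0.38 (Meg3 and Mest) to 0.94. The arrays share their 3 lines, so these correlations describe the line pattern and carry no test.

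The other imprinted genes were described next, to show how far the pattern reached beyond the set. Of 62 listed genes 45 were measured. Between SV5-NN4 and SV5 the paired limma fit called 2 lower and 0 higher (0.555% and 0.309% of all probe sets). At an unadjusted p under 0.05 there were 8 (14.6% of all genes), and the median difference was -0.07 (all genes 0.01). The list was written with earlier results of these arrays known. Dcn, decorin, a collagen-binding proteoglycan with imprinted expression in the mouse placenta, fell by 3.43 (SE 0.46, adjusted p = 0.03), lower in 3 of 3 pairs. It read 10.94, 12.48 and 11.9 in SV5 and 8.05, 9.85 and 7.11 in SV5-NN4, without overlap. Sfmbt2, a Polycomb-associated protein of the placenta expressed from the paternal allele, fell by 2.27 (SE 0.35, adjusted p = 0.039). It read 6.78, 7.04 and 7.92 in SV5 and 4.62, 5.61 and 4.68 in SV5-NN4. Without the replicate block, limma gave adjusted p = 0.22 for Dcn and 0.31 for Sfmbt2, and neither was called when any 1 SV5 or SV5-NN4 array was left out. Adjusted p across those fits was 0.077 to 0.14 for Dcn and 0.093 to 0.16 for Sfmbt2. The remaining 43 genes were not called. Cdkn1c, an inhibitor of cyclin-dependent kinases in the imprinted region that also holds Igf2, read between 3.76 and 4.5 in all lines, within or just above the control range.

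Over the array, SV5-NN4 against NIH 3T3 had 0.516% of all probe sets called lower and 1.14% higher. Of the 45, 3 were called lower and 0 higher. They were Dcn (-3.33, SE 0.46, adjusted p = 0.028), Sfmbt2 (-2.32, SE 0.35, adjusted p = 0.034) and Rian (-1.36, SE 0.2, adjusted p = 0.032). Rian is a maternally expressed noncoding RNA downstream of Meg3. It read 7.07, 7.86 and 6.04 in NIH 3T3, 6.2, 5.96 and 4.81 in SV5 and 6.04, 6.03 and 4.82 in SV5-NN4, so each pair was lower in both derived lines although the arrays overlapped. Without the replicate block the limma adjusted p of Dcn was 0.3, that of Sfmbt2 0.36 and that of Rian 1. None of the 3 was called when any 1 SV5-NN4 array was left out. Between SV5 and NIH 3T3, 0 of 45 were called by limma (0.0617% of all probe sets). At an unadjusted p under 0.05 there were 8, against 15% of all genes. Rian there gave -1.34 (SE 0.2, adjusted p = 0.11).

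**Figure D4:**
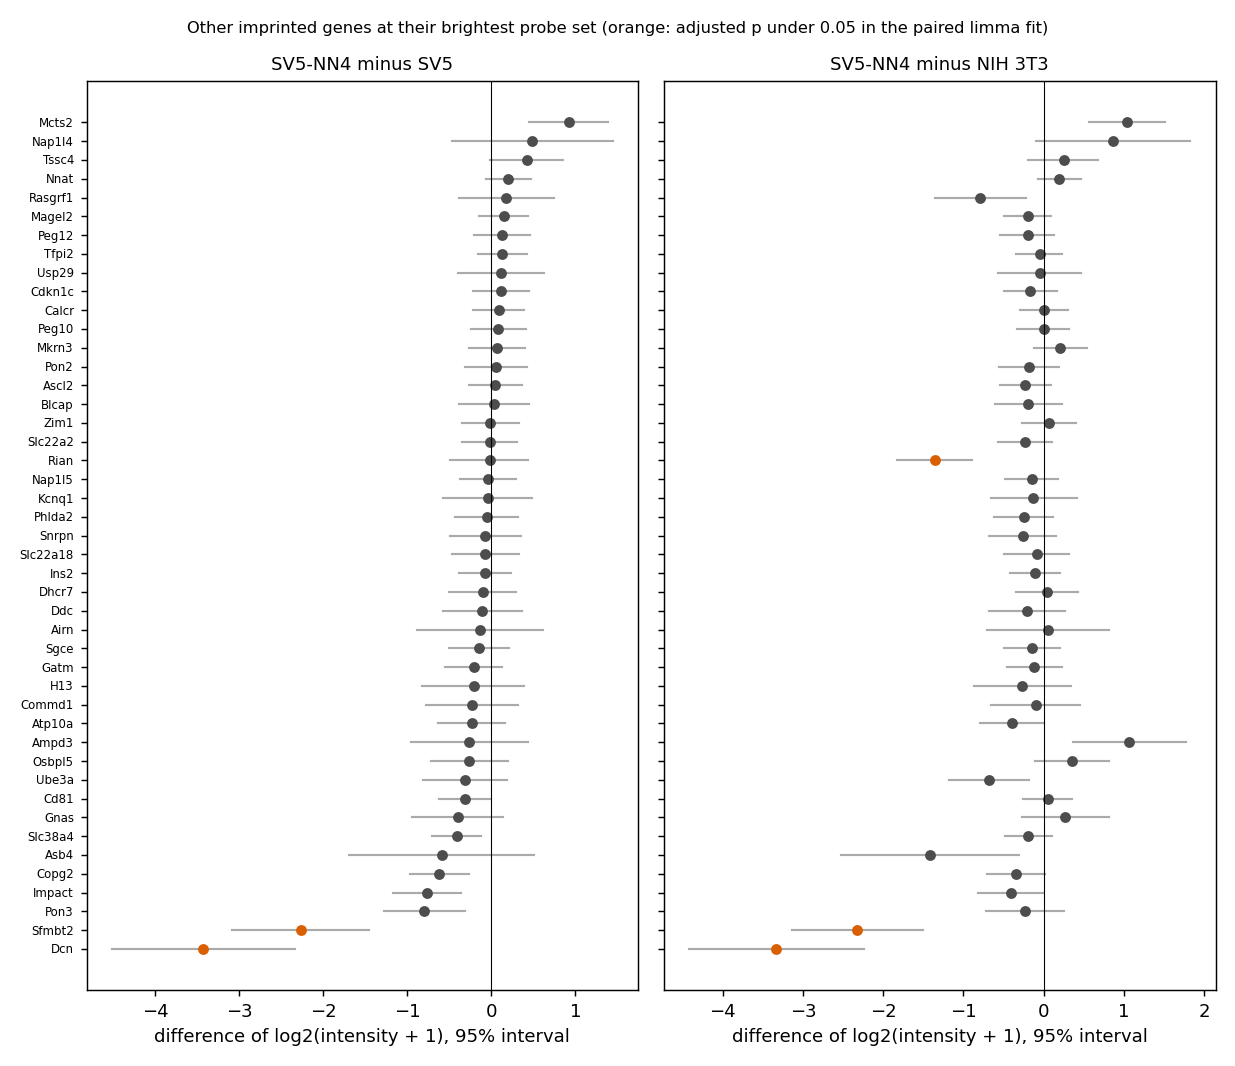
Difference of log2(intensity + 1) with its 95% interval for the 45 measured imprinted genes outside the set, each at its brightest probe set, for SV5-NN4 minus SV5 (left) and SV5-NN4 minus NIH 3T3 (right); orange marks an adjusted p under 0.05 in the paired limma fit. Dcn and Sfmbt2 are orange on both sides, Rian on the right, and the other genes are grey.

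Pathway partners of the members were counted at their brightest probe sets from lists also written with earlier results known. Over the array, limma called 0.555% of probe sets lower and 0.309% higher between SV5-NN4 and SV5. There 14.6% of all genes had an unadjusted p under 0.05. For the IGF pathway, which holds Igf1, both IGF and insulin receptors, Irs1, Irs2 and the binding proteins, limma called 0 of 14 in each comparison, with 3 at an unadjusted p under 0.05 in SV5-NN4 against SV5. Those 3 were Irs1 at -0.81 (SE 0.15, adjusted p = 0.061 by limma), Igfbp6 at 0.88 (SE 0.3) and Igf2bp1 at 0.63 (SE 0.22). Of the 14, 7 were above 0 and 7 below. Igf1r, the receptor through which Igf2 signals, differed there by -0.19 (SE 0.18). Of 8 measured MAGE proteins and necdin partners, 1 fell between SV5-NN4 and SV5 and 0 rose. That was Magee1, a MAGE family member, which differed by -1.06 (SE 0.13, adjusted p = 0.023, lower in 3 of 3 pairs). It read 6.85, 7.13 and 7.44 in SV5 and 5.95, 6.01 and 6.27 in SV5-NN4. The Notch list, chosen because Dlk1 resembles Notch ligands, had 0 of 16 called by limma in each comparison, and 0 at an unadjusted p under 0.05 in SV5-NN4 against SV5. Of 10 fat cell factors 1 fell between SV5-NN4 and SV5 and 0 rose. It was Cebpd, an early transcription factor of fat cell differentiation, at -1.39 (SE 0.2, adjusted p = 0.036), and its second probe set gave -0.59 (SE 0.16, adjusted p = 0.16). Of 14 factors that keep imprints, such as Dnmt1 and Trim28, limma called 0 in each comparison, with 3 at an unadjusted p under 0.05 in SV5-NN4 against SV5. Those 3 were Dnmt1 at 1.01 (SE 0.28), Hells at 1.18 (SE 0.44) and Setdb1 at -0.34 (SE 0.12). In that comparison 11 of the 14 were above 0 and 3 below, with a median of 0.05. Magee1 and Cebpd were not called without the replicate block, with limma adjusted p of 0.21 and 0.73, nor when 1 array of SV5 or SV5-NN4 was dropped, which gave adjusted p of 0.076 to 0.18 and 0.1 to 0.19.

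Genes that border Ndn and Dlk1 on the chromosome gave smaller differences. The 3 nearest measured genes on each side, taken by position in the RefSeq order, differed between SV5-NN4 and SV5 by -0.31 to 0.15 around Ndn. They include Snrpn, Magel2, Mkrn3 and Peg12, imprinted genes of the same cluster. Magel2, a MAGE gene next to Ndn, read between 4.26 and 5.16 on all arrays, and Mkrn3 between 4.03 and 4.59, so both were near the control range in NIH 3T3 already. The nearest measured gene on the other side of Ndn was within that range on all 9 arrays. A fall in these 3 genes could hardly have shown. Snrpn, by contrast, read between 5.58 and 7.17, above the control range on all 9 arrays, and differed by -0.07 (SE 0.18). Around Dlk1, Meg3 differed by -0.44 at its brightest probe set, and by -0.1 to -2.48 over all its probe sets. Rian differed by -0.02, and Wars, a tRNA ligase gene, by 0.6 (SE 0.12, adjusted p = 0.085 by limma). Between SV5 and NIH 3T3 the cluster went both ways, with Dlk1 at 1.32, Meg3 at -1.75 and Rian at -1.34, none past the threshold. There were 48 distinct neighbours of all measured members. Between SV5-NN4 and SV5, limma called 1 of them lower and 0 higher (0.555% and 0.309% of all probe sets). It was Utrn, the gene of the cytoskeletal protein utrophin near Plagl1, at -1.02 (SE 0.16, adjusted p = 0.046), and 0.89 without the replicate block. Their median difference was 0.01, as over all genes. Between SV5 and NIH 3T3 limma called 0 of the 48 (0.0617% of all probe sets). Between SV5-NN4 and NIH 3T3 it called Rian lower and 2 higher, where 0.516% of all probe sets were called lower and 1.14% higher. By limma the 2 were Wars at 0.68 (SE 0.12, adjusted p = 0.049) and Fignl1, near Grb10, at 1.4 (adjusted p = 0.046). Without the replicate block these 2 had a limma adjusted p of 1 and 0.77.

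**Figure D5:**
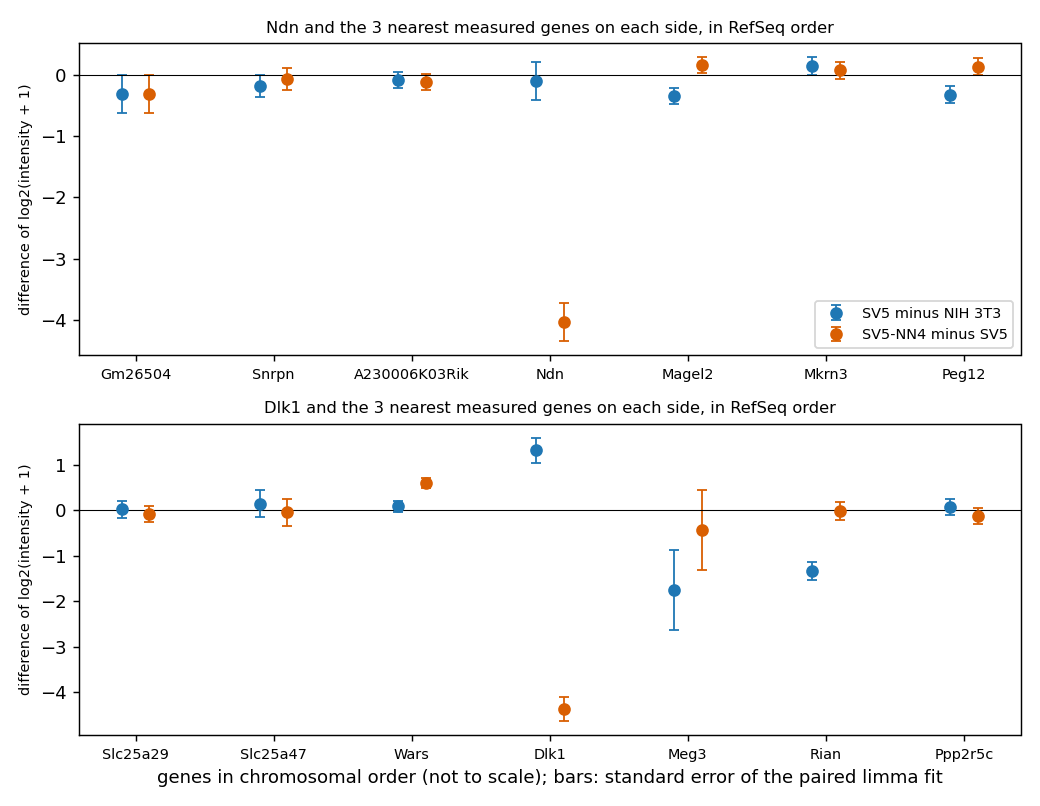
Difference of log2(intensity + 1) with its standard error for Ndn (top) and Dlk1 (bottom) and the 3 nearest measured genes on each side in RefSeq order, not to scale; blue is SV5 minus NIH 3T3 and orange is SV5-NN4 minus SV5. At the brightest probe sets shown, Ndn at -4.03 and Dlk1 at -4.37 lie farther from 0 in orange than their neighbours. Some neighbours of Ndn lie near or within the control range, and another Meg3 probe set gave -2.48.

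The genes whose levels ran most like those of Ndn were sought over the 9 arrays among 7141 genes at or above the median level. They were Cd302 (r = 0.985), the Ras-like GTPase Rasl11b (0.977), Tsc22d1 (0.966), the cadherin Cdh11 (0.966) and Reck (0.95), an inhibitor of metalloproteases. For Dlk1 they were Ccdc80 (r = 0.965), the metalloprotease Mmp14 (0.952), the growth factor receptor Pdgfra (0.948), Crtap (0.946) and the protocadherin Pcdhb20 (0.945). Each correlation is over 9 arrays in 3 lines and has no test. In SV5-NN4 minus SV5 the differences of the genes most like Ndn were -0.87 for Rasl11b, -1.07 for Tsc22d1 and -1.66 for Reck. Cd302 was at least 10.3-fold lower and Cdh11 at least 107-fold lower, since 2 and 1 of their SV5-NN4 arrays lay within the control range. Of the genes most like Dlk1, Mmp14 differed by -1.21, Ccdc80 by -1.49, Pdgfra by -2.1, Pcdhb20 by -2.31 and Crtap by -2.62. The genes were picked for this likeness, so these values are a description.

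The fibroblast markers moved in part with the members. Of 9 measured, 8 were lower in SV5-NN4 than in SV5 and 2 of them fell in the paired limma fit, Col3a1, a fibrillar collagen, by 1.05 (SE 0.15, adjusted p = 0.034) and Thy1, a surface glycoprotein, by 1.39 (SE 0.11, adjusted p = 0.0056). Over the array, 47.8% of genes were lower and limma called 0.555% of probe sets lower. Without the replicate block the limma adjusted p of Col3a1 was 0.31 and that of Thy1 0.023. The call of Thy1 was lost without SV5 replicate 1 or 2 or SV5-NN4 replicate 2 or 3, at up to 0.075, and that of Col3a1 without any 1 SV5 or SV5-NN4 array, at up to 0.24. The mean over the markers ran from 10.86 to 11.24 on the SV5 arrays and from 10.13 to 10.52 on the SV5-NN4 arrays. Their part in the members' differences was not tested. The log2 ratio of 3' to 5' Actb probe sets was 3.73, 4.32 and 2.42 in SV5 and 4.07, 4.63 and 3.66 in SV5-NN4, higher in SV5-NN4 in each pair, and its part was likewise not tested. Nras, the added gene, read 8.43, 7.76 and 8.34 in SV5 and 8.23, 8.03 and 8.45 in SV5-NN4 at its brightest probe set, a difference of 0.06 (SE 0.14). The sources used here do not say whether that probe set reads the added copy.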

How the data were processed

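RNA of 9 samples, 3 per line, was hybridised to Affymetrix mouse arrays. The table holds 22690 probe sets, and its intensity values are on a linear scale as deposited, made by the authors with RMA per the submitters' processing notes, with no version given. RMA summarises several probes into 1 value after background correction and quantile normalization, which narrows differences between arrays. Array medians of the deposited intensity ran from 56.2 to 62.35 and upper quartiles from 165.2 to 239.7. Quantile normalization over all arrays together would leave little spread of the quartiles, so whether it was applied in that way cannot be told. The number of arrays limits the precision.

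Values were taken as log2(intensity + 1), which understates the change of dim probe sets. Linear models (limma 3.58.1 in R 4.3.3, lmFit and eBayes) held the line and, as a block, the replicate number, over all 9 arrays. P-values were adjusted by the Benjamini-Hochberg method over all 22690 probe sets and called under 0.05. The numbers come from the sample labels. The block followed the pairing of equal replicate numbers set for the members. Deviations from the line means correlated between equal numbers at 0.26 to 0.84 in 9 of 9 pairs, and between other numbers at -0.73 to 0.11. Deviations cancel out within each line, so this contrast is partly built in and did not decide on the block. The fit was tested on simulated data. It missed most of the smaller and some of the larger changes added there, so a gene that was not called may still differ.

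Probe sets were named from the platform annotation where it gives 1 symbol (20380), not where it gives several (691) or none (1606), and 20351 of the 20380 matched RefSeq by gene ID. The brightest probe set stands for a gene in lists. The members and lists were chosen with earlier results of these data known. Named are all members, called list genes, the 5 genes most like Ndn and Dlk1, and the series' title genes Nras and Dcn. Igf1r, Cdkn1c and the neighbours Magel2, Mkrn3, Snrpn, Peg12, Wars, Utrn and Fignl1 were named after their values were seen. So were Irs1, Igfbp6, Igf2bp1, Dnmt1, Hells and Setdb1. Alternatives changed the block, the arrays fitted, the pseudocount, the scaling, the filter on dim probe sets, the variance prior and each array in turn.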

Additional observations from a re-analysis of the deposited data

How the results depend on the processing

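Without the replicate block, the limma fit of SV5-NN4 against SV5 called 19 probe sets in place of 196, 1 between SV5 and NIH 3T3 in place of 14, and 18 between SV5-NN4 and NIH 3T3 in place of 375. Of the other imprinted genes it then called 0 in place of 2 between SV5-NN4 and SV5, and 0 in place of 3 between SV5-NN4 and NIH 3T3. Of the MAGE genes and of the fat cell factors it called 0 in place of 1. With only the 2 lines compared in the fit, 1504, 0 and 18 probe sets were called, and of the other imprinted genes 4 and 0. Over the 3 comparisons together, 2 IGF, 3 MAGE and 2 imprint maintenance genes were then called. A pseudocount of 16 called 0 probe sets between SV5 and NIH 3T3, 0 and 1 other imprinted genes, and 0 fat cell factors. Median centring and quantile normalization called 0 probe sets between SV5 and NIH 3T3, and the intensity trend 6. Quantile normalization and the filter on dim probe sets called 2 fat cell factors. With each array left out in turn, 14 (without SV5-NN4 replicate 2) to 950 (without NIH 3T3 replicate 1) probe sets were called for SV5-NN4 against SV5. The range was 0 to 49 between SV5 and NIH 3T3, and 13 to 1239 between SV5-NN4 and NIH 3T3. Other imprinted genes called ranged from 0 to 3, 0 to 1 and 0 to 5. The lists ranged from 0 to 4 for IGF, 0 to 2 for MAGE, 0 to 2 for Notch, 0 to 2 for fat cell factors and 0 to 5 for imprint maintenance. Fits that leave arrays out also hold fewer arrays. The cause of the changed counts was not tested. Member differences between SV5-NN4 and SV5 kept their sign at the brightest probe set under all 16 of these settings for Ndn (-4.51 to -3.76), Dlk1 (-4.66 to -4.08), Igf2 (-3.17 to -1.65), Plagl1 (-1.99 to -0.93) and Grb10 (-1.18 to -0.92). With the mean over a gene's probe sets, Ndn gave -3.55, Igf2 -1.29, Plagl1 -0.77, Meg3 -0.96 and Grb10 -0.41. Between 21 and 26 of the 27 member probe sets were below 0 when an array was left out. Signal over background limits Mest and 9 member probe sets that reached the control range on at least 1 array.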

Other observations

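A probe set whose annotation holds both H19 and Mir675, the microRNA within H19, was left out because a value with symbols of several genes names none of them. It read 4.87, 5.27 and 6.69 in NIH 3T3, 4.42, 4.27 and 4.09 in SV5 and 4.26, 4.29 and 4.29 in SV5-NN4. All NIH 3T3 arrays lay above the arrays of both derived lines, which were at or near the top of the control range. Over all probe sets, 2.39% lay lower in SV5 than in NIH 3T3 without overlap, and 3.11% lower in SV5-NN4. The highest array, NIH 3T3 replicate 3, also had the high Gapdh ratio of 5.21, whose part here was not tested.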
